A study of Mus musculus with 4 samples.

Results

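The 10 genes described here encode inflammatory and regulatory cytokines of macrophages: Il1a, Il1b, Il1rn, Il6, Tnf, Il10, Il12a, Il12b, Il18 and Il27. They were taken by gene name from the array annotation, from a list set with earlier results of these data known, and the rule itself used no measured value. Each gene was read by 1 probe, so the members comprised 10 of the 55681 non-control probes and 10 of 21884 genes that were named in the RefSeq table and measured on all 4 arrays. The study compared bone marrow-derived macrophages (BMDMs) of 10 week-old C57BL/6J mice on single-colour Agilent arrays, with 1 array for each of 4 conditions. All cells were differentiated for 6 days in L929 cell supernatant, a source of the macrophage growth factor M-CSF, and then stimulated for 2 days. M1 cells were wild type and received 20 ng/ml of IFN-γ with 100 ng/ml of LPS, whereas M2 cells were wild type and received 50 ng/ml of IL-4. Lamtor1-deficient M2 cells carried the label p18 (2400001E08Rik) -/- and received the same IL-4, and Torin1-treated M2 cells were wild type and received IL-4 with 250 nM Torin1, an inhibitor of the kinase mTOR. According to the methods, the deletion was made by crossing Lamtor1 flox/flox mice with LysM-Cre, a Cre driven in myeloid cells, and the comparators there were littermates. Lamtor1 anchors the Ragulator complex to lysosomes, where mTORC1 is activated.

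IL-1α and IL-1β signal through the IL-1 receptor, and the receptor antagonist encoded by Il1rn occupies that receptor without signalling. IL-1β and IL-18 are made as inactive precursors that caspase-1 cleaves, whereas TNF is shed from the cell surface by ADAM17. The products of Il12a and Il12b form IL-12, the product of Il27 pairs with that of Ebi3 to form IL-27, and IL-10 restrains the production of most of the others.

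With 1 array per condition, no difference between conditions has a replicate error and none was tested. The number of arrays limits the precision, and an SD beside a signal below is the spread of repeated spots on a single array. Signals are the processed intensities of the scanner software, and normalized signals are these divided by the array's 75th percentile (287 in M1, 595 in M2, 536 in Lamtor1-deficient M2 and 470.0 in Torin1-treated M2). A ratio of 2-fold or more was counted as higher or lower. Where only 1 of 2 arrays was well above background, the ratio was taken as a bound against the lowest signal that was well above background on the dim array, and this bound had to reach 2-fold. Repeated spots gave a technical SD of 0.088 to 0.10 for a log2 ratio between arrays. It combines the median spot SD of both arrays over all probes well above background with at least 8 kept spots, and is not a gene's own spread. Probes not well above background had a median spot SD of 0.18 to 0.40 on the log2 scale within an array.

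The targeted gene and an M1 marker were read first as a check of the labels. The signal of Lamtor1, listed under its older name 2400001E08Rik, was 39460 in M2 and 833 in Lamtor1-deficient M2, a log2 ratio of -5.42, and the log2 ratio of Torin1-treated M2 to M2 was 0.18. Nos2, which encodes the inducible nitric oxide synthase of M1 cells, was higher than in M2 by 10.56 on the log2 scale in M1, 5.60 in Lamtor1-deficient M2 and 5.42 in Torin1-treated M2. All 5 macrophage markers were well above background on every array, with a summed normalized signal of 350 to 665. Among them, Emr1, which encodes the surface marker F4/80, had a normalized signal of 54.4 in M1, 111.6 in M2, 18.8 in Lamtor1-deficient M2 and 15.9 in Torin1-treated M2, and was thus 5.95-fold and 7.02-fold lower than in M2 on the last 2 arrays. Of 7 neutrophil markers, Ly6g was not on the array, Elane had no kept spot on the Torin1-treated array, and the other 5 were lower than in M2 on each of the remaining arrays.

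The promoters of 4 members are shown first, because Il1a and Il6 were higher and Tnf lower without Lamtor1, and Il1b was below background there. They are the 250 bases before the transcription start in RefSeq on GRCm38.p6, written 5′ to 3′ on the gene's strand. Il1a lay at chr2:129309973-129310222 on the minus strand, Il1b at chr2:129371140-129371389 on the minus strand, Il6 at chr5:30012864-30013113 on the plus strand, and Tnf at chr17:35202008-35202257 on the minus strand. Capitals mark matches to the TATA box, AP-1, C/EBP and NF-kB motifs.
Il1a: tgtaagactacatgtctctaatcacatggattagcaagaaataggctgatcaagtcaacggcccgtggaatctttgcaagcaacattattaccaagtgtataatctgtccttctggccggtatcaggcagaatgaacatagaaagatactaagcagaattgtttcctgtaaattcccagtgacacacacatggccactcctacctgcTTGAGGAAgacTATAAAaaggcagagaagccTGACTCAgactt
Il1b: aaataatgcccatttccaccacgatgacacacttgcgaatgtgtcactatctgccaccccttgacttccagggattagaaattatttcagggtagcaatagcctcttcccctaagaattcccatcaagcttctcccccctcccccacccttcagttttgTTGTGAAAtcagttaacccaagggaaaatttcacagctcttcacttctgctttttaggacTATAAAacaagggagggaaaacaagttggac
Il6: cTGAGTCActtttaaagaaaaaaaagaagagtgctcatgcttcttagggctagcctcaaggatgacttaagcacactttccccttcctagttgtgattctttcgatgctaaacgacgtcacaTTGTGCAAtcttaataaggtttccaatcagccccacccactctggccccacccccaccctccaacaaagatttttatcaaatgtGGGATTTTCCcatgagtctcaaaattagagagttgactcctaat
Tnf: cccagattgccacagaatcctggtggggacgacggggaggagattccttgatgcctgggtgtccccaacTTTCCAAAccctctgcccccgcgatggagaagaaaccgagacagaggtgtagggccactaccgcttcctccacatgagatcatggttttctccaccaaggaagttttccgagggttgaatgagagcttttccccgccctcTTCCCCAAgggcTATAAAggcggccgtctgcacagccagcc

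A TATA box, TATAAA, began 32 bases before the start of Il1a, 31 before that of Il1b and 29 before that of Tnf, and the Il6 window held none on either strand. On both strands, 12.4% of 32851 promoter windows of that length held TATAAA. The AP-1 motif TGANTCA, found in 6.75% of all windows, began 12 bases before the start of Il1a and 249 bases before that of Il6. It was not among the letters of the Tnf and Il1b windows. Of the 11 windows of members 3 held it, and the other was an Il1rn window, where it began 141 bases before the start. Il1rn had a log2 ratio of 0.15 without Lamtor1, under 2-fold. All 4 printed windows held the loose C/EBP motif TTNNGNAA, which occurred in 36.8% of windows, and the Tnf window held it on the minus strand. An NF-kB motif, found in 7.25% of windows, began 44 bases before the Il6 start. The STAT6 motif (TTC and GAA with 4 bases of any kind between them), a site type of the factor that IL-4 activates, occurred in 5.85% of all windows and in 5 of the 11 windows of members, which belonged to Il1rn, Il12a and Il18. The 11 windows came from 8 members, and those of Il1rn and Il12a belonged to alternative starts of 1 gene, with 2 of the Il1rn windows overlapping over the same STAT6 match. The table had no entry for Il10 and Il27.

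The probes of 5 members are shown, because they carried the results for members with no printed promoter. They are 60 bases long and their mm9 positions are those of the array annotation. The whole probe is given for Il1rn at chr2:24205094-24205153 on the plus strand, Il18 at chr9:50389761-50389820 on the plus strand and Il27 at chr7:133736137-133736196 on the minus strand. Only the first 30 bases are given for Il10 at chr1:132920943-132921002 and Il12a at chr3:68502346-68502405, both on the plus strand.
Il1rn: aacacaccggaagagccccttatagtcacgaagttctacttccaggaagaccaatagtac
Il18: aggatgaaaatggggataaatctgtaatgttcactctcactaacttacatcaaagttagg
Il27: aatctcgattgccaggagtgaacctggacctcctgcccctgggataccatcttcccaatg
Il10: ggaaaacctcgtttgtacctctctccgaaa
Il12a: aagtacatgagcctatttatatttatttat

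The remaining probes lay at chr2:129125994-129126053 for Il1a, chr2:129190347-129190406 for Il1b, chr5:30346367-30346426 for Il6, chr17:35336795-35336854 for Tnf and chr11:44227121-44227180 for Il12b. Probes for Il1b, Tnf, Il10 and Il12b were printed in 10 spots per array, that for Il6 in 2, and the others in 1.

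A group of 4 members was well above background on all arrays: Il1rn, Tnf, Il18 and Il27. Il1a and Il6 were well above background on every array except M2, Il1b and Il10 only in M1 and M2, and Il12a and Il12b on none. Fewer cells of a type and less RNA per cell cannot be told apart in these bulk RNAs.

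**Figure D1:**
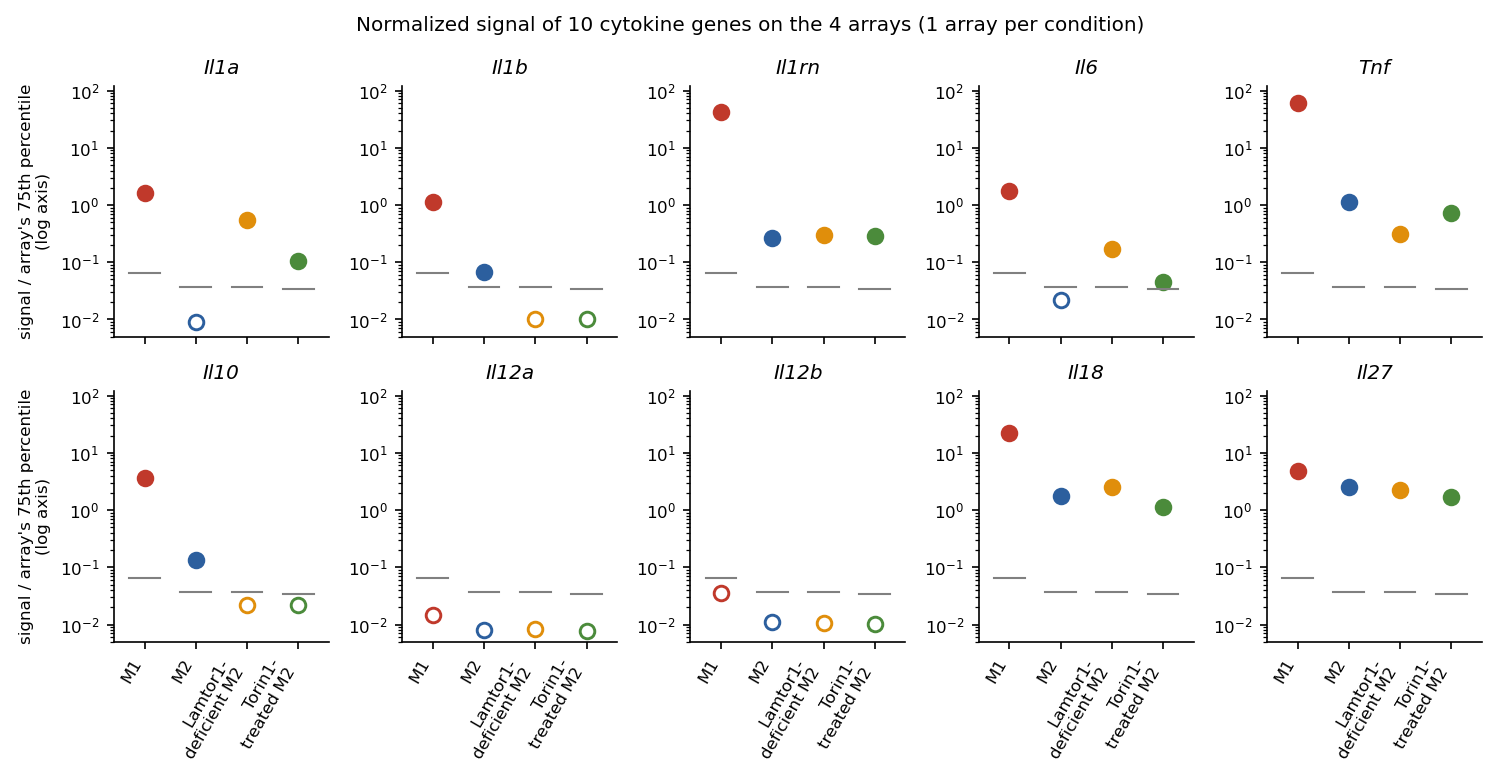
Normalized signal (processed signal divided by the 75th percentile of the array, log axis) of the 10 cytokine genes on the 4 arrays, 1 point per array. Filled points were well above background and open points were not, and grey bars mark the lowest normalized signal well above background on that array. M1 holds the highest point for the 8 genes detected on any array, while Il1a and Il6 are open in M2 and Il1b and Il10 are open after Lamtor1 loss or Torin1.

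The first comparison asked which cytokine mRNAs changed when IL-4-stimulated cells lacked Lamtor1. Without Lamtor1, Il1a and Il6 were higher and Tnf and Il10 lower than in M2, so that members moved in opposite directions. Of 10 members, 2 were higher and 2 lower by 2-fold, 3 (Il1rn, Il18 and Il27) lay under that fold, Il1b had a bound that did not decide it, and 2 were not above background on either array. Among all genes compared, 9.55% were higher and 8.94% lower by the same rule. The median log2 ratio over all 10 members, -0.01, was the mean of the values of Il12a and Il12b, detected on neither array, and nothing is read from it. Over the 4 members measured on both arrays it was -0.02, and over all genes 0.04.

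Il1a encodes IL-1α, which is active without cleavage by caspase-1. Its signal was 459 in M1, 5.31 in M2, 295 in Lamtor1-deficient M2 and 48.9 in Torin1-treated M2. The M2 value was not well above background, and the other arrays were clearly separated from it. Il1a was at least 15.1-fold higher in Lamtor1-deficient M2 than in M2. In that array its normalized signal reached 34.3% of that in M1, whereas the M2 array allowed at most 2.27%. Shares of the M1 level depended on the scaling and on background correction. With median scaling those in Lamtor1-deficient M2 were 63.4% for Il1a, 18.0% for Il6 and 0.920% for Tnf, and with normexp they were 39.9%, 16.9% and 0.783%. The Il1a limit in M2 rose as well, as the bound of M1 over M2 behind it fell from 44.0-fold to 24.9-fold with median scaling and 11.0-fold with normexp.

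Il6 encodes a cytokine of fever and the acute phase response. Its signal was 501 in M1, 13.2 in M2, 91.4 in Lamtor1-deficient M2 and 21.1 in Torin1-treated M2. In Lamtor1-deficient M2 the 2 spots read 79.1 and 103.7, and in M2 they read 10.4 and 16.0, so the spots did not overlap. Il6 was at least 4.69-fold higher in Lamtor1-deficient M2 than in M2, and amounted to 9.76% of the M1 level. With normexp background correction the bounds were 2.00-fold for Il6 and 4.40-fold for Il1a.

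Tnf encodes tumour necrosis factor. Its signal was 17588 ± 461 (SD, 10 spots) in M1, 667 ± 33.3 (10 spots) in M2, 164 ± 8.81 (9 spots) in Lamtor1-deficient M2 and 348 ± 12.3 (9 spots) in Torin1-treated M2. The kept spots of the 4 arrays did not overlap. Tnf was thus 3.67-fold lower in Lamtor1-deficient M2 than in M2, a log2 ratio of -1.88 with a technical SD of 0.088. While Il1a and Il6 were above the M2 level without Lamtor1, Tnf was below it, at 0.498% of the M1 level.

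Il10 encodes the anti-inflammatory cytokine of the set. Its signal was 1059 ± 63.0 (SD, 9 spots) in M1, 81.0 ± 5.98 (9 spots) in M2, 11.6 ± 3.97 (10 spots) in Lamtor1-deficient M2 and 10.3 ± 3.54 (10 spots) in Torin1-treated M2. None of the 10 spots was well above background in either of the latter arrays, and all 10 were in M2. Il10 was at least 3.64-fold lower in Lamtor1-deficient M2 than in M2, a bound that was 1.58-fold with normexp background correction.

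Il1b encodes IL-1β. Its kept spots gave 324 ± 13.8 (SD, 10 spots) in M1, 40.4 ± 5.75 (7 spots) in M2, 5.42 ± 1.63 (9 spots) in Lamtor1-deficient M2 and 4.88 ± 1.71 (10 spots) in Torin1-treated M2. The last 2 values were not well above background, and M2 lay between them and M1. Because the M2 signal was itself close to background, the Lamtor1-deficient array allowed only the bound of at least 1.82-fold lower, which was not counted as lower. This bound was 1.15-fold with normexp and 3.19-fold with outlier spots kept, where 3 members, with Il1b among them, were lower. The IL-1 genes therefore divided, with Il1a above background and Il1b below it on the same array.

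Il1rn, the receptor antagonist, had signals of 11901 in M1, 159 in M2, 158 in Lamtor1-deficient M2 and 134 in Torin1-treated M2. Only M1 stood apart. Its log2 ratio of Lamtor1-deficient M2 to M2 was 0.15, and its normalized signal was 0.643% to 0.712% of the M1 level on the 3 IL-4 arrays.

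Il18, an inducer of IFN-γ in lymphocytes, had signals of 6309 in M1, 1058 in M2, 1344 in Lamtor1-deficient M2 and 537 in Torin1-treated M2. Its log2 ratio of Lamtor1-deficient M2 to M2 was 0.50. Il27 encodes the p28 subunit of IL-27 and had signals of 1400 in M1, 1500 in M2, 1190 in Lamtor1-deficient M2 and 794 in Torin1-treated M2. Divided by the 75th percentile these were 4.88, 2.52, 2.22 and 1.69, with M1 highest. Il27 varied least among the members detected on all arrays, with a log2 ratio of -0.18 in Lamtor1-deficient M2.

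Il12a and Il12b encode the p35 and p40 subunits of IL-12. The Il12a signals were 4.15 in M1, 4.78 in M2, 4.45 in Lamtor1-deficient M2 and 3.55 in Torin1-treated M2. Those of Il12b were 10.2 ± 2.37 (SD, 8 spots) in M1, 6.46 ± 2.25 (10 spots) in M2, 5.59 ± 1.33 (10 spots) in Lamtor1-deficient M2 and 4.80 ± 1.81 (10 spots) in Torin1-treated M2. All 8 values lay under the lowest signal well above background, which was 15.7 to 21.6 on the 4 arrays, and their ratios enter only the medians over all 10 members. The probe of Il12a, shown in part above, held 10 G or C among its 60 bases (16.7%), and 0.0485% of all probes held a smaller share, beside a median of 43.3%. The probe of Il12b held 38.3%. The part of probe composition in these signals was not tested. The study measured IL12p40, the product of Il12b, by real-time PCR as an M1 signature gene after IFN-γ and LPS. A probe under background thus does not show that the mRNA was absent.

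**Figure D2:**
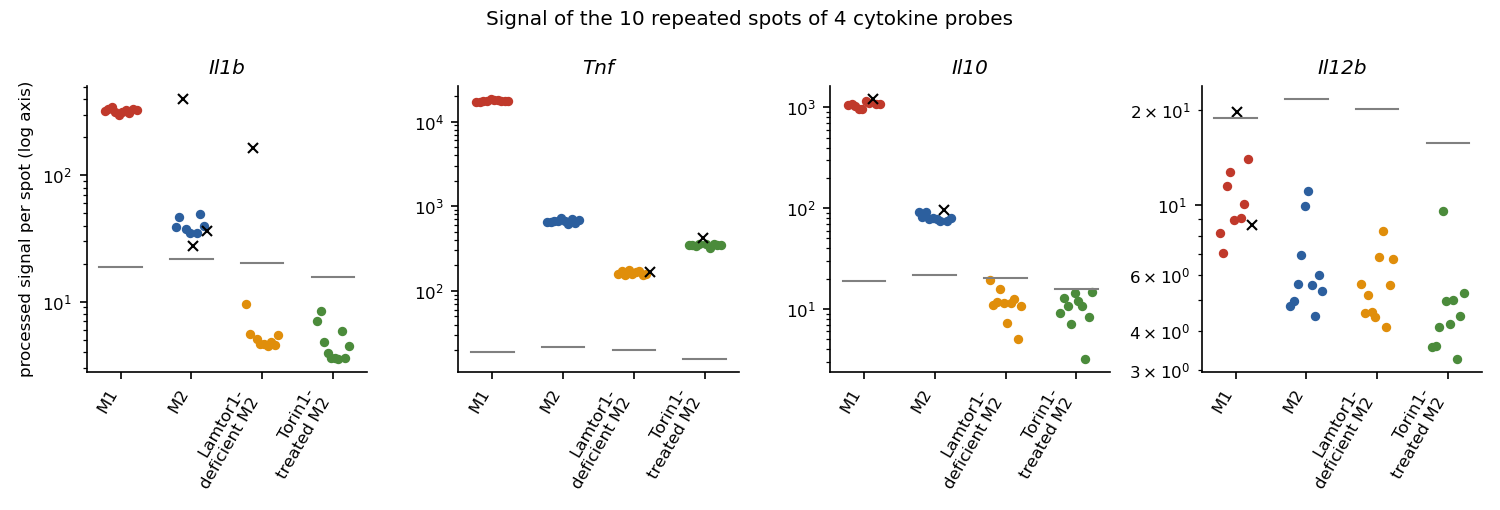
Processed signal (log axis) of the 10 spots of the Il1b, Tnf, Il10 and Il12b probes on the 4 arrays. Circles are kept spots, crosses are spots that the scanner software marked as outliers, and grey bars mark the lowest signal well above background. Tnf spots form 4 separate groups, Il10 and Il1b spots in the Lamtor1-deficient and Torin1-treated arrays lie under the bar except for 1 outlier of Il1b, and no kept Il12b spot reaches it.

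The second comparison asked what Torin1 did to the same mRNAs in IL-4-stimulated wild-type cells. It used the M2 array that served the first comparison, so the 2 sets of ratios are not independent and are given side by side. With Torin1, Il1a was higher and Il10 and Il1b were lower than in M2. This made 1 member higher and 2 lower, whereas 12.0% of all genes were higher and 14.5% lower. The median log2 ratio over all 10 members, -0.33, rested in part on Il12b, detected on neither array. It was -0.59 over the 4 members measured on both arrays and -0.06 over all genes.

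Il1a was at least 2.86-fold higher in Torin1-treated M2 than in M2, and its level was 6.50% of that in M1, which was 9.68% with median scaling and 14.4% with normexp. Il10 was at least 4.06-fold lower, beside the bound of 3.64-fold without Lamtor1. With normexp background correction both bounds lay under 2-fold, at 1.58-fold for Il1a and 1.5-fold for Il10. Il1b was at least 2.03-fold lower, just past the 2-fold rule, and over the alternatives run this bound reached from 1.1-fold to 3.78-fold. Il6 was at least 1.23-fold higher and did not pass.

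The log2 ratios to M2 of the genes detected on both arrays were -0.60 for Tnf, -0.64 for Il18, -0.58 for Il27 and 0.10 for Il1rn. None of them passed 2-fold, and with median scaling the first 3 were -0.85, -0.89 and -0.83. That of Il1rn became -0.15 when arrays were scaled to their medians. Scaling to medians moved the median of all genes from -0.06 to -0.31 in this comparison. The share of higher genes among all genes past 2-fold was 45.2%, and 29.5% with median scaling.

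Neutrophil markers differed between the same arrays as Il1b, Il10 and Tnf. The summed normalized signal of the 5 markers used was 4.36 in M1, 87.8 in M2, 6.21 in Lamtor1-deficient M2 and 5.82 in Torin1-treated M2, and all 5 were at least 2-fold lower than in M2 on each other array. Of these, Ltf was not well above background in M1, and S100a8 is also expressed by activated macrophages. In M1 the markers were low while Il1b, Il10 and Tnf were at their highest. The part of neutrophil RNA in the M2 levels of these genes was not tested. Lymphocyte markers had a summed signal of 15.1 in M1, 12.9 in M2, 13.1 in Lamtor1-deficient M2 and 7.45 in Torin1-treated M2, and Ms4a1 was not well above background on any array. The B cell gene Cd79a was well above background on all 4 arrays, with signals of 105.6 in M1, 295 in M2, 74.5 in Lamtor1-deficient M2 and 76.5 in Torin1-treated M2, and it was 3.57-fold lower than in M2 without Lamtor1 and 3.05-fold lower with Torin1. The part of lymphocyte RNA was not tested either. Mast cell and basophil markers summed to at most 0.161, and 2 of 4 were well above background in M2 alone. The dendritic cell markers Flt3 and Zbtb46 summed to 0.967 in M1 and to 0.0934 to 0.141 elsewhere.

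The third comparison set the Lamtor1-deficient array against the Torin1-treated array, without use of the M2 array. Il1a, Il6 and Il18 were higher and Tnf was lower in Lamtor1-deficient M2, making 3 members higher and 1 lower. Of all genes, 14.5% were higher and 9.83% lower. Above background on neither array were 4 members, and the median log2 ratio over all 10 members, 0.09, rested in part on 1 of them, Il12a. It was 0.76 over the 6 members measured on both arrays and 0.12 over all genes.

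Il1a was 5.28-fold higher in Lamtor1-deficient M2 than in Torin1-treated M2, a log2 ratio of 2.40, and Il6 was 3.81-fold higher, a log2 ratio of 1.93. With normexp these log2 ratios were 1.48 and 0.73, so Il6 no longer passed 2-fold. Il18 was 2.19-fold higher, lying above M2 without Lamtor1 and below it with Torin1, and the log2 ratio of 1.13 was 0.98 when only probes detected on every array set the 75th percentile. Tnf was 2.42-fold lower, a log2 ratio of -1.28 that shrank to -0.96 both with median scaling and with normexp. Il27 differed by 0.39 on the log2 scale and Il1rn by 0.05, the latter within the technical SD of 0.093. Scaling to the median of each array moved the median of all genes to 0.44 and the share of higher genes among those past 2-fold from 59.6% to 78.1%, and that share was 47.8% when only probes detected on every array set the 75th percentile.

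Fibroblast markers differed between these arrays too. Their summed normalized signal was 16.1 in M1, 43.2 in M2, 55.5 in Lamtor1-deficient M2 and 15.3 in Torin1-treated M2, all 5 were well above background on every array, and 4 were at least 2-fold higher in Lamtor1-deficient M2 than in Torin1-treated M2. Il6 was not well above background in M2, where these markers were at 43.2. Their part in the Il1a and Il6 differences was not tested.

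**Figure D3:**
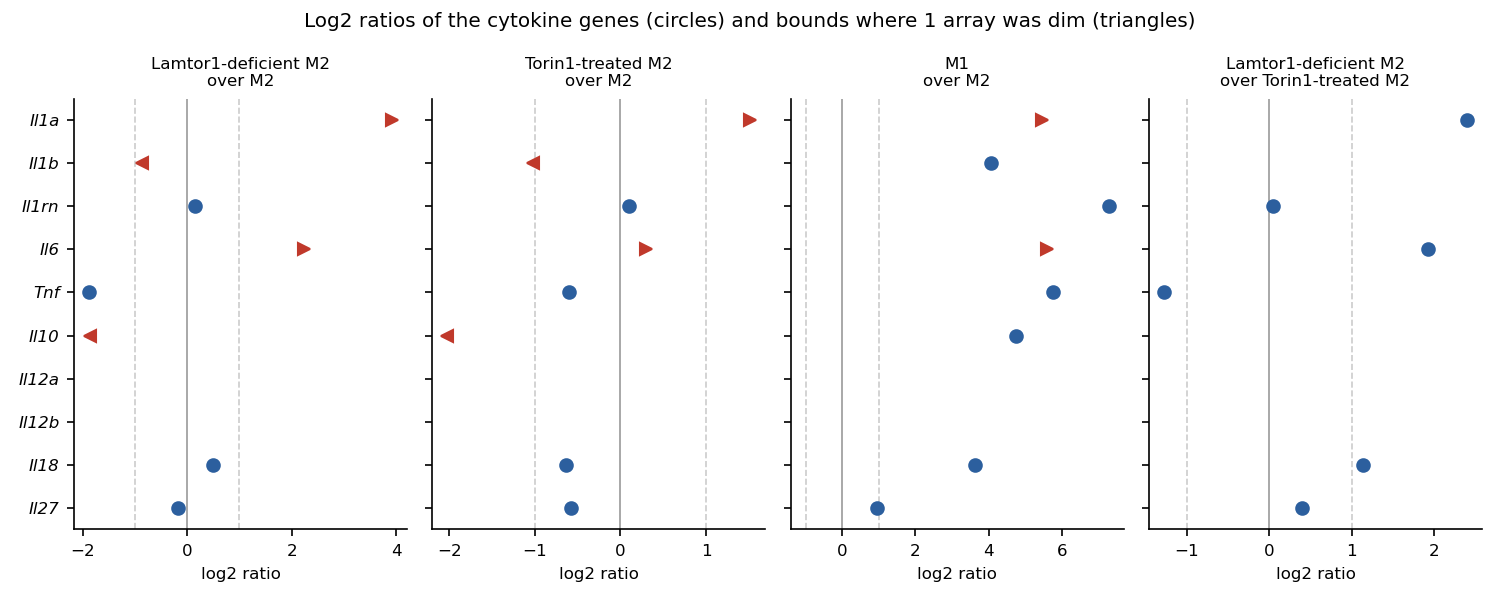
Log2 ratio of each cytokine gene in the 4 comparisons, with a separate axis range in each panel. Circles are ratios between arrays that were both well above background, triangles are bounds that point away from the dim array, dashed lines mark 2-fold, and genes above background on neither array have no symbol. Il1a and Il6 lie to the right and Tnf to the left in the Lamtor1-deficient array against both M2 and Torin1-treated M2.

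The last comparison gave the range of the same genes between classical and alternative stimulation. Of 10 members, 7 were higher and 0 lower in M1 than in M2, Il27 was under 2-fold, and the IL-12 subunits could not be compared. Among all genes, 27.3% were higher and 26.0% lower. The median log2 ratio was 4.41 for the members and 0.69 for all genes. With arrays scaled to their medians, the median of all genes was -0.13 and the share of higher genes among those past 2-fold fell from 51.3% to 21.9%, and quantile normalization gave 40.1%.

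Il1rn had the largest measured ratio to M2, 156-fold or 7.28 on the log2 scale. Tnf was 54.7-fold higher, Il10 27.1-fold, Il1b 16.7-fold and Il18 12.4-fold. These log2 ratios of 5.77, 4.76, 4.06 and 3.63 were 4.95, 3.94, 3.24 and 2.81 with median scaling, which gave 6.46 for Il1rn. With normexp they were 3.81 for Il10 and 2.70 for Il1b, and with outlier spots kept that of Il1b was 3.16. All remained past 2-fold under each of these. Il6 was at least 48.0-fold and Il1a at least 44.0-fold higher, with bounds of 11.9-fold and 11.0-fold under normexp background correction. The Il27 ratio was 0.95 on the log2 scale, which is 0.27 above the median of all genes, and it was 0.13 with median scaling and 1.03, past 2-fold, with quantile normalization. The cytokine IL-10, which restrains inflammation, and the antagonist gene Il1rn were thus higher in M1 together with the inflammatory members.

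Among the 15 receptors and soluble binders of these cytokines, 2 were higher and 2 lower in Lamtor1-deficient M2 than in M2, and 1 was higher and 4 lower with Torin1, with 13 above background on at least 1 array in each. The shares over all genes were 9.55% higher and 8.94% lower without Lamtor1, and 12.0% and 14.5% with Torin1. With normexp 0 receptors were higher in either comparison, and the counts of those lower were 2 and 4. Il10ra, the ligand-binding chain of the IL-10 receptor, had log2 ratios of -1.58 without Lamtor1 and -2.52 with Torin1, in the direction of its ligand gene. Il27ra, a receptor chain for IL-27, had log2 ratios of -1.73 and -2.60, although Il27 itself lay within 2-fold of M2. In M1, Il27ra was at least 23.7-fold lower than in M2.

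Il1r1, the signalling receptor for IL-1, differed in direction. Its normalized signal was 0.360 in M1, 0.767 in M2, 1.65 in Lamtor1-deficient M2 and 0.119 in Torin1-treated M2. The log2 ratio to M2 was 1.11 without Lamtor1 and -2.68 with Torin1, and 3.79 between these arrays. Il1r2, which encodes a decoy receptor for IL-1, was well above background in M1 alone, at least 64.1-fold above M2. Il12rb2, a chain of the IL-12 receptor, had log2 ratios of 1.04 and -0.01, and Il12rb1 of 0.98 and 1.08. Il18bp, the soluble binder of IL-18, had ratios of 0.88 and 0.97 and was 5.80 higher in M1. Il6st, the shared gp130 chain, had log2 ratios of -0.27 without Lamtor1 and -1.22 with Torin1.

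Ebi3, the partner of the Il27 product, had log2 ratios of 0.20 without Lamtor1, 0.56 with Torin1 and 3.18 in M1. Il23a, which encodes the partner of p40 in IL-23, was not well above background on any array. Of 6 genes for cytokine maturation and release, none passed 2-fold without Lamtor1, where 9.55% of all genes were higher and 8.94% lower. Adam17 passed with Torin1, with a log2 ratio of 1.53, beside -0.60 for its substrate gene Tnf. The caspase-1 gene Casp1 had ratios of -0.03 and -0.13, and 4 of the 6 genes were higher in M1, among them Casp4 with 4.71, beside 27.3% of all genes. With median scaling 2 of the 6 were higher in M1, as Adam17 went from 1.27 to 0.45 and Gsdmd, the gene of the pore-forming gasdermin D, from 1.31 to 0.49, and 1 was lower, Pycard with -1.62. With Torin1, median scaling also took Pycard and Nlrp3, both inflammasome genes, past 2-fold lower, from -0.94 and -0.78 to -1.19 and -1.02.

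Of 8 negative regulators and genes of IL-10 induction, 1 was higher and 2 were lower without Lamtor1, and 1 was higher and 3 lower with Torin1. Socs3, a feedback inhibitor of IL-6 family receptors, was the gene that was higher in both, with log2 ratios of 1.74 and 1.42. Among all genes these shares were 9.55% and 8.94% without Lamtor1 and 12.0% and 14.5% with Torin1, and counts over so few genes are a description. The genes past 2-fold lower without Lamtor1 were Dusp1, a phosphatase of MAP kinases, with -1.88 and Zfp36, which encodes an RNA-binding protein that destabilizes Tnf mRNA, with -1.18. With Torin1 their ratios were -0.15 and -0.00. Those past 2-fold lower with Torin1 were Socs1, a feedback inhibitor of interferon and IL-4 receptors, with -2.15, Bcl3 with -1.55, and Maf, a transcription factor of Il10, with -1.46. Without Lamtor1 these 3 had ratios of -0.66, -0.53 and -0.70, also below M2. In M1, 6 of the 8 were higher, beside 27.3% of all genes, led by Socs3 with 8.59.

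Of 12 other cytokine genes, 7 were above background on at least 1 array in each comparison with M2. Of these, 1 was higher and 2 were lower both without Lamtor1, beside 9.55% and 8.94% of all genes, and with Torin1, beside 12.0% and 14.5%. Il16 was lower in both, with log2 ratios of -2.13 and -2.39, and Il7 was at least 2.03-fold lower without Lamtor1 and at least 2.27-fold lower with Torin1. Without Lamtor1 the count of lower genes fell from 2 to 1 with median scaling and with quantile normalization, and of these genes Il7 lay closest to 2-fold. Ifng was at least 3.16-fold higher in Lamtor1-deficient M2. Of the T and NK cell genes in the lymphocyte list, Cd3g was well above background on that array alone (35.0, beside 4.69 in M2), a bound of 1.79-fold that did not pass. Cd3e and Nkg7, detected on all arrays, had log2 ratios of -0.02 and 0.08. The part of lymphocyte RNA in the Ifng signal was not tested. Lif, a relative of IL-6, was at least 3.24-fold higher in Torin1-treated M2. In M1, 4 genes were higher and 1 lower, beside 27.3% and 26.0% of all genes. Il15 was higher by 5.33 and Osm by 4.90 on the log2 scale, Ifnb1 was at least 1150-fold higher, Il4 had a log2 ratio of 1.16, and Tgfb1, the gene of an anti-inflammatory cytokine, was lower with -1.60. With median scaling 3 genes were higher and 3 lower in M1. With normexp 0 of these genes were higher and 1 was lower in each comparison of an IL-4 array with M2.

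**Figure D4:**
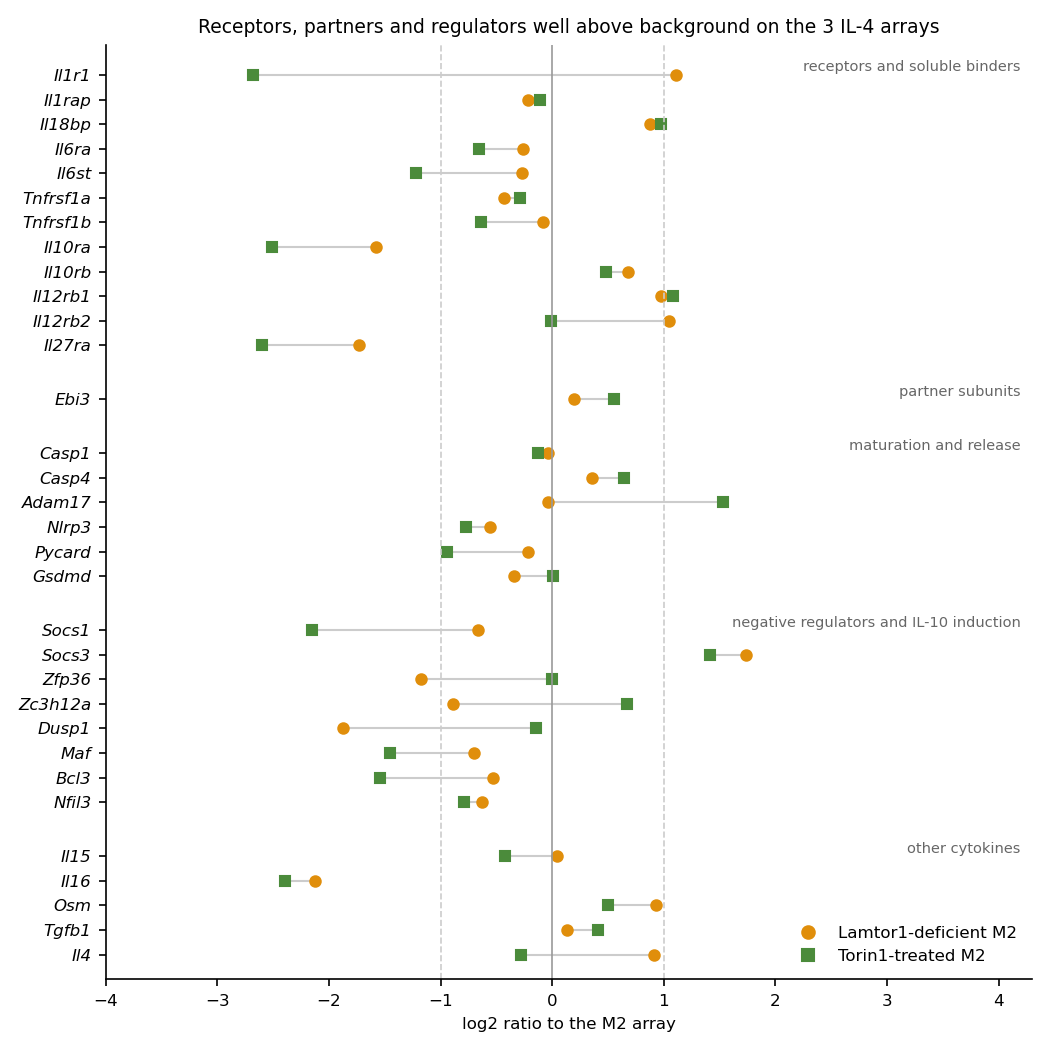
Log2 ratio to the M2 array of the 32 receptor, partner, maturation, regulator and other cytokine genes that were well above background on all 3 IL-4 arrays. Circles are Lamtor1-deficient M2, squares are Torin1-treated M2, and dashed lines mark 2-fold. Il10ra, Il27ra and Il16 lie left of the 2-fold line in both, Socs3 lies right of it in both, and Il1r1 lies on opposite sides.

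The genes nearest in profile were sought for the 4 members detected on all arrays, among 12403 genes, as the Euclidean distance between mean-centred log2 values over the 4 arrays. With so few arrays, this is a description. Nearest to Il1rn were Mxd1 (distance 0.40), Ly6c1 (0.58) and Isg20 (0.72), and nearest to Tnf were Gm4902, now Phf11b (0.41), Gbp6 (0.46) and Nr1d1 (0.65). Il18 had Tmem2, now Cemip2, at 0.095, followed by Ero1l, now Ero1a (0.31), and Slc31a1 (0.33). Il27 had Xpo6 (0.058), Lasp1 (0.079) and Mrpl49 (0.080).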

How the data were processed

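Total RNA of 4 BMDM cultures, 1 per condition, was labelled with Cy3 and hybridised to single-colour Agilent mouse arrays of 62976 spots. The authors deposited 1 scanner file per array, in which the processed signal is a background-corrected intensity, and a value table of the same arrays that differed from it by at most 0.497%. Feature Extraction was version 10.7.3.1 in the file headers and 10.5.1.1 in the submitters' processing notes. The files carried no log2 values, so these were computed from the deposited intensities.

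Control spots (3671 per array) and spots with an outlier mark were left out, signals under 1.0 were set to 1.0, spots of a probe were averaged, and each array was divided by its 75th percentile, the shift named in the methods. A probe was well above background where more than 0.5 of its kept spots had that mark. No spot was saturated, and all arrays shared 1 scan time. Depth is not defined for arrays: the lowest signal well above background was 15.7 to 21.6, and 50.9% to 55.5% of probes were well above it. Groups followed the labels. Genes were named through the RefSeq table (21911 array names matched, 21884 with a probe measured on all 4 arrays), by their brightest probe.

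Comparisons were counts at 2-fold and medians, without a test or p-value. The genes named in the text were the 10 members, the genes of lists of receptors, partner subunits, maturation, regulators, other cytokines and cell type markers (84 of 85 on the array), Lamtor1, and the 3 nearest genes in profile per member detected on every array. The members and lists were chosen with earlier results of these data known, and 2 marker genes of these lists are not reported here. Alternatives were 3 other scalings, normexp background correction (limma 3.58.1, R 4.3.3, offset 50), the value table, kept outlier spots, other filters on dim probes and 3-fold. The code, in Python 3.11.15, was tested on simulated data.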

Additional observations from a re-analysis of the deposited data

How the results depend on the processing

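Among members measured on both arrays, the sign of the ratio was kept under every alternative run by 4 of 4 in Lamtor1-deficient M2 over M2 and by 6 of 6 in M1 over M2. It was kept by 3 of 4 in Torin1-treated M2 over M2 and by 5 of 6 in Lamtor1-deficient over Torin1-treated M2, Il1rn being the exception in both. The bounds of Il1a and Il10 against M2 depended most on background correction: with normexp they were 4.40-fold for Il1a and 1.58-fold for Il10 without Lamtor1, and 1.58-fold and 1.5-fold with Torin1. Other dim members depended on other settings too. With Torin1 the Il1b bound was 1.1-fold with normexp and 3.78-fold with outlier spots kept, and the Il6 bound was 1.21-fold with normexp and 1.0-fold with quantile normalization.

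The medians that follow are over all 10 members, undetected ones included, unless another number is given. With median scaling, the members' median was -0.58 for Torin1, 3.59 for M1 and 0.41 for Lamtor1-deficient over Torin1-treated M2, where 0 members were lower. Quantile normalization gave medians of -0.49, 4.27 and 0.39. Setting the 75th percentile from only those probes that every array detected gave a median of -0.059 for Lamtor1-deficient over Torin1-treated M2, a change of sign, and left 1 member lower with Torin1. With normexp, the median was 0.14 for Lamtor1-deficient M2 (1 lower, Tnf), -0.11 for Torin1 (0 higher, 0 lower) and 3.53 for M1, and 2 members were higher and 0 lower in Lamtor1-deficient than in Torin1-treated M2. Keeping outlier spots made 3 members lower without Lamtor1, beside 1324 of all genes, against 1318 with these spots left out. With no filter on dim probes 3 members were lower as well, beside 8.34% of all genes. Keeping outlier spots gave medians of 4.19 for M1 and 0.27 for Lamtor1-deficient over Torin1-treated M2. The median of all spots, an alternative chosen after seeing the data, left 1 member lower with Torin1.

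Using only members well above background on both arrays left 0 higher and 1 lower without Lamtor1 and 0 in either direction with Torin1, by its construction, with medians of -0.59 over 4 members for Torin1 and 0.76 over 6 for Lamtor1-deficient over Torin1-treated M2. With no filter on dim probes 2 members were higher with Torin1, beside 13.6% of all genes. At 3-fold, 0 were higher and 1 lower with Torin1, and 0 were lower in Lamtor1-deficient than in Torin1-treated M2. The share of all genes past 3-fold is not given here, and these counts are a description. By construction, scaling to medians shifts every log2 ratio of a comparison by the same amount. The normexp offset of 50 is added to every signal, which draws ratios of dim signals toward 1. Apart from these, the filters and the fold, the cause of these shifts was not tested. No paired analysis was possible because each condition had 1 array, and no array could be left out for the same reason. Signals near background limit what Il1b, Il10 and the IL-12 subunits can show.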

Other observations

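1 of the 10 Il1b spots, the third, stood apart on some arrays. It read 402 in M2, where the 7 kept spots lay between 35.0 and 49.7, and 163 in Lamtor1-deficient M2, where the kept spots lay between 4.49 and 9.65. On the Torin1-treated array the same spot read 4.81, within the range of 3.53 to 8.50 of all 10 spots. The scanner software marked it as an outlier on both of the former arrays. With it included, the mean Il1b signal was 74.9 in M2 and 21.2 in Lamtor1-deficient M2, whereas the medians over all 10 spots were 38.2 and 4.94.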
